A study of Homo sapiens
Mus musculus and Mus musculus and Homo sapiens with 3 samples.

Results

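The respiratory chain passes electrons from NADH and succinate to oxygen across the inner mitochondrial membrane. Complex I (NADH dehydrogenase) and complex II (succinate dehydrogenase) feed ubiquinone, complex III passes the electrons to cytochrome c, and complex IV (cytochrome c oxidase) hands them to oxygen. Most subunits come from nuclear genes, while a small core of complexes I, III and IV and of the ATP synthase is encoded in the mitochondrial genome, so that both genomes supply the same assemblies.

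The members described here were the nuclear genes whose symbols start with NDUFA, NDUFB, NDUFC, NDUFS or NDUFV (assembly factors named NDUFAF left out), SDHA to SDHD, UQCR, COX4I, COX5, COX6, COX7 or COX8 and that were listed in every deposited file. They were 67 of the 15473 symbols common to all files: 36 of complex I, 4 of complex II, 8 of complex III and 19 of complex IV, counting NDUFA4 and NDUFA4L2 with complex IV. They were set against the 13 protein genes of the mitochondrial genome. NDUFB1, an accessory subunit of complex I, was listed in the human files only, with 5988 and 6474 UMIs (unique molecular identifiers, one per captured RNA molecule), and was not a member.

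Human and mouse pluripotent stem cells differentiated in vitro towards motor neurons, as embryoid bodies, had been profiled by 3′ single-cell RNA sequencing. All cells carried a lentiviral GFP driven by CAGGS with a short barcode and had been sorted for GFP. Human 1, from the induced pluripotent line NCRM1, and mouse 1, from C57BL/6 embryonic stem cells, were sequenced as 1 mixed library. Human 2, from the line RUES1 (labelled as iPS), and mouse 2, again C57BL/6, each had a library to themselves. Sampling ran over several days, which the files do not tie to single cells, so each class below pools the days. In class comparisons each p-value measured only how far the class differences varied between these libraries, with a single spread estimated over both species. In human that variation also holds a line difference. In species comparisons each p-value measured only the spread between libraries of a species, which in human again holds the line difference.

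The files held 2407, 2044, 1881 and 2783 cells in human 1, human 2, mouse 1 and mouse 2, with 28577630 to 83969715 UMIs per file. In the mixed library 60 barcodes (1.42% of 4228) were found in both species' files and were left out, and the other libraries shared at most 2. Cells were classed after thinning to 7000 UMIs: neurons had at least 3 STMN2 UMIs, NEUROG2+ cells at least 1 NEUROG2 UMI with fewer STMN2 UMIs, and progenitors at least 1 SOX2 UMI and neither of the others. Neurons numbered 350, 375, 213 and 456 cells, NEUROG2+ cells 517, 391, 382 and 385, and progenitors 708, 512, 708 and 871, in the same order of libraries. Cells under 7000 UMIs, numbering 394, 344, 67 and 153, entered no class. A further 354, 183, 441 and 809 cells met no gate. The summed level of 10 neuron markers was 9089 to 14810 CPM (UMIs of a gene scaled to a common total) in neurons and 94.6 to 303 CPM in progenitors. STMN2 is among these markers, so part of that difference was set by the gate. The 7 motor neuron markers summed to 513 to 1116 CPM in neurons and 12.4 to 36.6 CPM in progenitors. Cycling markers were at 133 to 265 CPM in neurons and 898 to 1510 CPM in progenitors. Mesenchyme or neural crest markers were at 39.8 CPM in neurons and 553 CPM in progenitors of human 2, against 3.07 to 25.7 CPM in neurons and 4.38 to 33.1 CPM in progenitors of the other libraries. The median cell had 9964.5 to 23020.5 UMIs among neurons and 13451.5 to 35651 UMIs among progenitors of the 4 libraries. A list of stress and RNA quality genes that holds MALAT1, a nuclear RNA, was at 21872 to 68307 CPM in neurons and 4993 to 32101 CPM in progenitors, higher in neurons in each library. The part of these differences in the results below was not tested. Levels below are UMI counts of a class summed per library and given as CPM after TMM scaling, which centres a trimmed mean of the log ratios between sums, and a 3′ count does not grow with gene length.

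Together the members took a larger share of the UMIs in neurons than in progenitors in all 4 libraries. Their share was 2.35% in neurons and 1.88% in progenitors of human 1, and 2.25% in neurons and 1.91% in progenitors of human 2. In mouse 1 it was 2.58% in neurons and 2.21% in progenitors, and in mouse 2 it was 2.83% in neurons and 2.48% in progenitors. NEUROG2+ cells lay near progenitors, at 1.98% and 1.96% in human and 2.26% and 2.49% in mouse. Complex IV subunits alone held 0.953% ± 0.0727 of UMIs in human neurons and 0.728% ± 0.0275 in human progenitors (SD, n = 2 libraries each). In mouse they held 1.14% ± 0.0263 in neurons and 0.973% ± 0.0281 in progenitors (SD, n = 2 each). For complex III the mouse libraries went opposite ways, with 0.327% in neurons and 0.313% in progenitors of mouse 1, and 0.364% in neurons and 0.392% in progenitors of mouse 2.

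The mitochondrially encoded genes did not share this direction in human cells. Their share was 3.16% in neurons and 3.70% in progenitors of human 1, and 2.25% in neurons and 2.45% in progenitors of human 2. In mouse 1 it was 2.34% in neurons and 2.39% in progenitors, and in mouse 2 it was 1.02% in neurons and 0.910% in progenitors. The ratio of mitochondrially encoded to nuclear members' UMIs was accordingly 1.34 in neurons and 1.97 in progenitors of human 1, and 1.00 in neurons and 1.28 in progenitors of human 2. In mouse 1 the ratio was 0.909 in neurons and 1.08 in progenitors, and in mouse 2 it was 0.360 in neurons and 0.366 in progenitors. These shares were not tested, and they depend on how much of each library other genes take. In mouse 2, as described below, 6 of the 13 genes had at most 0.120 times their mouse 1 level in progenitors. MT-CYB alone gave 50290 of the 99855 mitochondrially encoded UMIs in mouse 2 neurons. The shares and ratios of mouse 1 and mouse 2 thus rest on different genes.

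**Figure D1:**
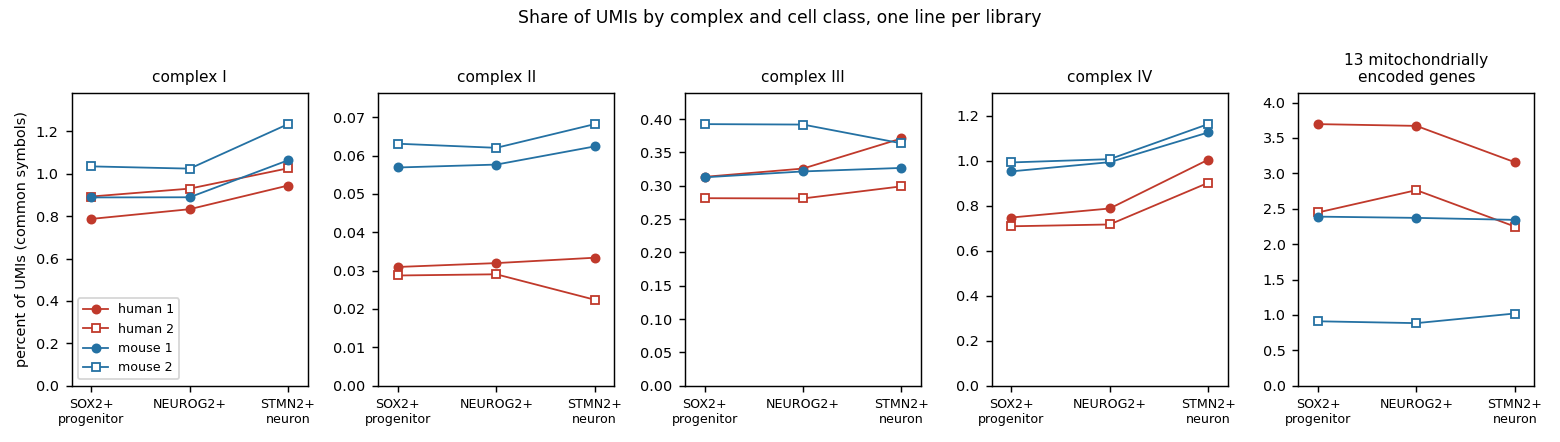
Percent of UMIs of the common symbols (y axis, from 0) taken by the nuclear members of each complex and by the 13 mitochondrially encoded genes, by cell class (x axis), with 1 line per library (red human, blue mouse; filled circles library 1, open squares library 2). Complex IV is higher in neurons than in progenitors in all 4 libraries, and the mitochondrially encoded share of mouse 2 is near 1% in every class. In mouse 2, 6 of the 13 genes had at most 0.120 times their mouse 1 level in progenitors.

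Per gene, human neurons were compared with human progenitors, and mouse neurons with mouse progenitors, by edgeR's quasi-likelihood test with Benjamini-Hochberg adjustment over 11887 genes. Of the 67 members, 64 passed the filter on low counts, and COX6A2, COX7B2 and COX8C did not. In human, 17 members rose and 6 fell, where 21.3% of all genes tested rose and 26.6% fell. The median log2 change of the members was 0.17, or 0.17 also without COX7A1, which had no UMI in human progenitors, against -0.07 for all genes. In mouse, 3 members rose and 14 fell, where 28.5% of all genes rose and 30.6% fell, and the members' median was 0.00 against -0.02. Fewer members than this background fell in human and rose in mouse. The members that rose in human were somewhat more than the background share, and those that fell in mouse were fewer.

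These counts are relative to the TMM scaling. With library sizes alone, which put the median log2 change of all genes at 0.03 in human and 0.23 in mouse, 26 members rose and 4 fell in human, and 31 rose and 3 fell in mouse. Of all genes, 2976 rose and 2676 fell in human, and 4394 rose and 2686 fell in mouse. The members' median was then 0.30 in human and 0.27 in mouse, so that in mouse it was close to that of all genes under both scalings, while the split of the mouse calls into higher and lower turned round. Without human 1 or without human 2 the members' median in human was 0.16 or 0.19, and without mouse 1 or mouse 2 their median in mouse was 0.04 or 0.01. Fewer members, and fewer of all genes, were called in human without either human part. The same held in mouse without human 1 or mouse 2. Without cells that held a UMI of MKI67 or TOP2A, genes of dividing cells, 15 members rose and 4 fell in human, and 4 rose and 13 fell in mouse. Of all genes, 42.9% were then called in human and 55.0% in mouse. Without cells that held at least 3 UMIs of COL1A1, COL1A2, COL3A1, LUM, KRT8 and KRT18 together, 19 rose and 7 fell in human, and 4 rose and 14 fell in mouse.

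**Figure D2:**
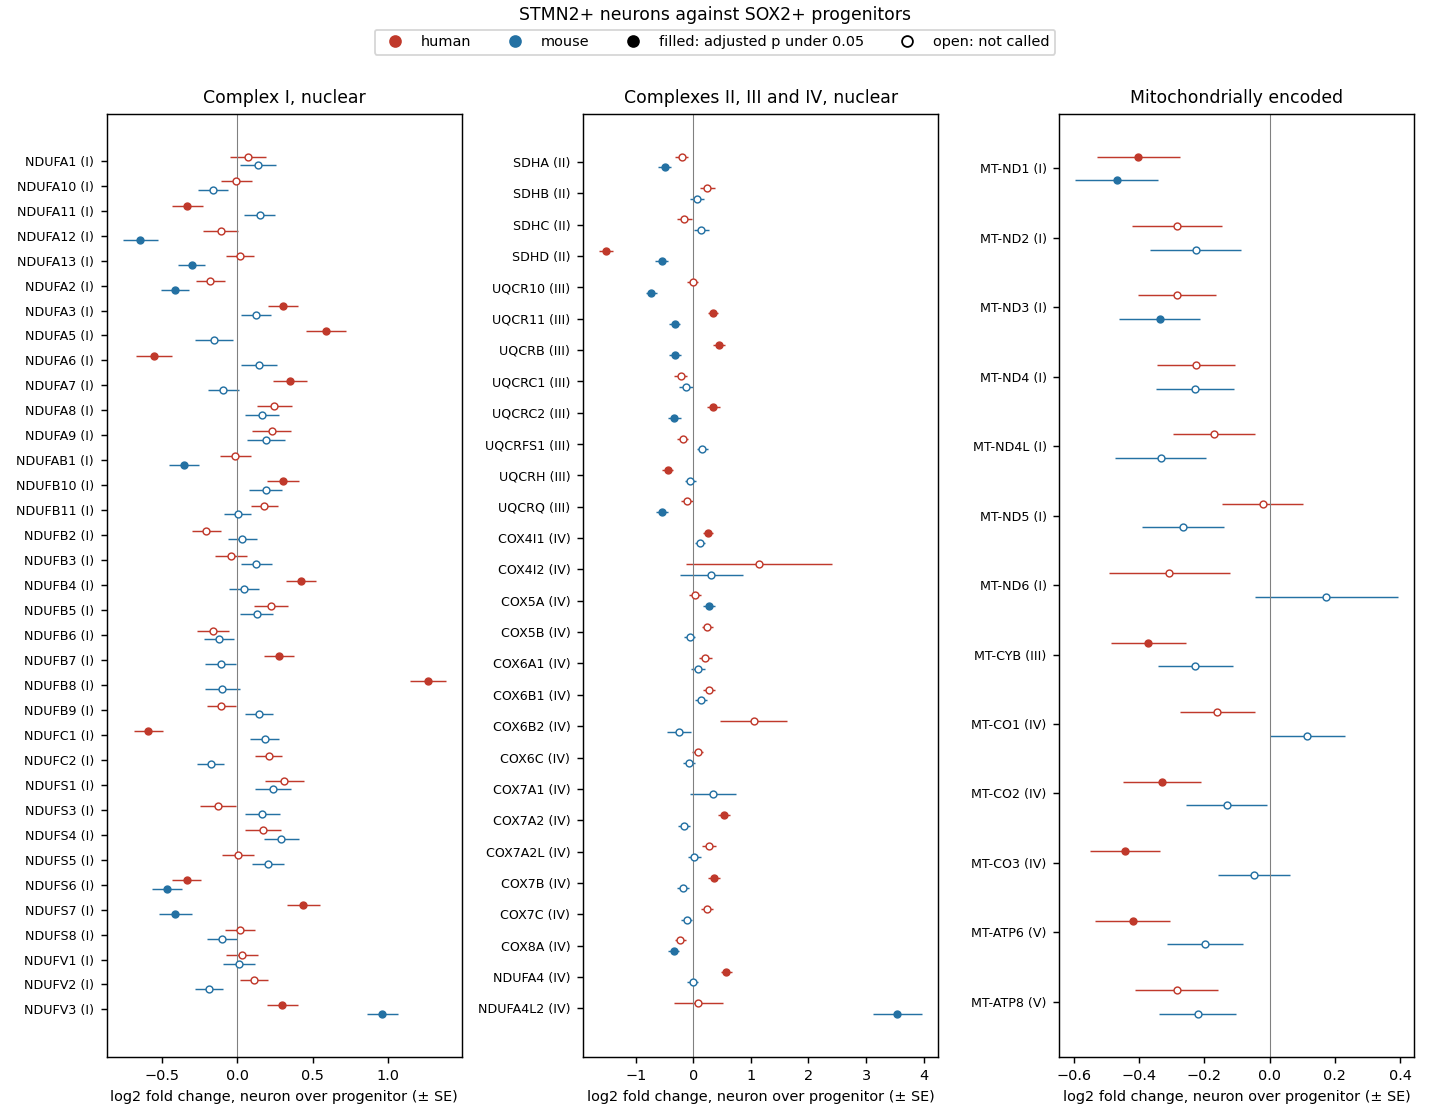
Log2 fold change of neurons over progenitors with its SE (x axis) for 63 of the 64 members and the 13 mitochondrially encoded genes (y axis, complex in brackets), red for human and blue for mouse; filled points passed an adjusted p of 0.05. The human point of COX7A1 is left out because it rests on 2 UMIs; SDHD falls in both species, NDUFB8 rises in human, and NDUFA4L2 and NDUFV3 rise most in mouse.

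In complex I, 10 of the 36 members rose and 4 fell in human neurons, while 1 rose and 6 fell in mouse neurons. Counts by complex, here and below, are to be read against all genes tested. Of these, 21.3% rose and 26.6% fell in human, and 28.5% rose and 30.6% fell in mouse. The largest called human rise was in NDUFB8, an accessory subunit of the membrane arm (human chromosome 10, 100523729 to 100529923, GRCh38.p14; mouse chromosome 19, 44548572 to 44555440, GRCm38). NDUFB8 had 578 and 711 CPM in neurons of human 1 and human 2, against 258 and 277 CPM in their progenitors. Its level was 273 and 289 CPM in NEUROG2+ cells, close to the progenitors, and neurons stood well above both classes. In mouse 1 and mouse 2 it had 351 and 620 CPM in neurons, against 422 and 598 CPM in progenitors, and the libraries moved in opposite directions. The log2 change was 1.26 ± 0.12 in human (SE; edgeR adjusted p = 3.0e-05) and -0.10 ± 0.12 in mouse (adjusted p = 0.49). Human 1 listed this symbol in a pair of rows, all of its UMIs were in the second one, and the rows were added, so the human level is uncertain where reads could be split between entries.

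NDUFC1, a small accessory subunit, went the other way in human. It had 154 and 160 CPM in human neurons, against 242 and 231 CPM in human progenitors, a log2 change of -0.59 ± 0.10 (SE; edgeR adjusted p = 0.00084). In mouse it had 478 and 471 CPM in neurons, against 425 and 411 CPM in progenitors, which did not pass the test (adjusted p = 0.12). NDUFA5, an accessory subunit of the peripheral arm, had 181 and 218 CPM in human neurons, against 131 and 134 CPM in human progenitors. It rose by 0.59 ± 0.13 on the log2 scale (edgeR adjusted p = 0.0044), while in mouse it had 232 and 411 CPM in neurons and 299 and 399 CPM in progenitors.

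NDUFV3, an accessory subunit of the NADH-binding module, was the complex I member that rose in mouse. It had 539 and 424 CPM in mouse neurons, against 300 and 201 CPM in mouse progenitors, and the groups did not overlap. Its log2 change was 0.96 ± 0.10 in mouse (SE; edgeR adjusted p = 3.7e-05) and 0.30 ± 0.10 in human (adjusted p = 0.037), where neurons had 189 and 144 CPM and progenitors 161 and 112 CPM. NDUFV3 was the only 1 of the 17 members that rose in human to rise also in mouse, where it was 1 of 3. NDUFA12, an accessory subunit, fell to 306 and 222 CPM in mouse neurons, against 445 and 369 CPM in progenitors (log2 change -0.64 ± 0.12, edgeR adjusted p = 0.0010). NDUFS6, a zinc-binding accessory subunit, fell in both species, with log2 changes of -0.33 ± 0.10 in human (adjusted p = 0.018) and -0.47 ± 0.10 in mouse (adjusted p = 0.0024).

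Core subunits of complex I that the nucleus encodes carry the flavin and the iron-sulfur clusters of the electron path. Among them, NDUFS7 passed the test in both species. NDUFS7, which holds the last cluster before ubiquinone, had 242 and 158 CPM in human neurons and 179 and 116 CPM in human progenitors. In mouse NDUFS7 had 170 and 171 CPM in neurons and 202 and 253 CPM in progenitors, so that its called changes were opposite: 0.44 ± 0.11 in human (edgeR adjusted p = 0.0079) and -0.41 ± 0.11 in mouse (adjusted p = 0.0084). Under 19 other settings of the processing the mouse change of NDUFS7 ran from -0.51 to -0.13 and kept its call in 15. The human change ran from 0.40 to 0.56 and kept its call in 16. NDUFS1 had log2 changes of 0.31 ± 0.13 in human and 0.24 ± 0.12 in mouse, neither of which passed. NDUFS3, NDUFS8, NDUFV1 and NDUFV2 had log2 changes between -0.13 and 0.11 in human cells and between -0.18 and 0.17 in mouse cells, and none passed.

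In complex II the membrane anchor subunit SDHD (human chromosome 11, 112086873 to 112095794, GRCh38.p14; mouse chromosome 9, 50596357 to 50603812, GRCm38) fell in both species. SDHD had 18.3 and 16.9 CPM in neurons of human 1 and human 2, against 52.3 and 48.1 CPM in progenitors. NEUROG2+ cells had 41.0 and 39.3 CPM, between the other classes in both libraries. In mouse 1 and mouse 2, SDHD had 124 and 130 CPM in neurons, against 169 and 205 CPM in progenitors, with 168 and 192 CPM in NEUROG2+ cells. Its log2 change was -1.51 ± 0.12 in human (SE; edgeR adjusted p = 1.6e-05), the largest fall among the members tested there, and -0.55 ± 0.11 in mouse (adjusted p = 0.0014). In human 1 this symbol too was listed in a pair of rows, with all of its UMIs in the first one. The human level of SDHD thus carries the same uncertainty as that of NDUFB8.

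SDHA, the flavoprotein that oxidises succinate, fell in mouse to 97.1 and 62.5 CPM in neurons, against 131 and 92.0 CPM in progenitors (log2 change -0.50 ± 0.11, edgeR adjusted p = 0.0030). In human it had 52.2 and 67.1 CPM in neurons and 60.6 and 76.9 CPM in progenitors (-0.21 ± 0.11, adjusted p = 0.16). SDHB, the iron-sulfur subunit, and SDHC, the other membrane anchor, did not pass in either species, with log2 changes of 0.24 ± 0.13 and -0.16 ± 0.13 in human and 0.06 ± 0.12 and 0.14 ± 0.13 in mouse. The 4 subunits of 1 complex thus did not move together.

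In complex III, 3 of the 8 members rose and 1 fell in human neurons, while none rose and 5 fell in mouse neurons. UQCR10, a small accessory subunit, had 338 and 342 CPM in mouse neurons, against 527 and 602 CPM in mouse progenitors. Its log2 change was -0.73 ± 0.10 in mouse (SE; edgeR adjusted p = 0.00017), while human neurons had 496 and 520 CPM and human progenitors 531 and 495 CPM. UQCRQ, the ubiquinone-binding accessory subunit, fell to 408 and 606 CPM in mouse neurons, against 636 and 829 CPM in progenitors (-0.55 ± 0.10, adjusted p = 0.0010). UQCRH, the hinge protein beside cytochrome c1, fell in human, with 568 and 427 CPM in neurons against 840 and 536 CPM in progenitors (-0.45 ± 0.10, adjusted p = 0.0039).

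UQCRB, UQCR11 and UQCRC2 passed the test in both species and in opposite directions, as NDUFS7 did. UQCRB, which lies at the ubiquinone site, had 1102 and 539 CPM in neurons against 786 and 408 CPM in progenitors of human 1 and human 2, and 446 and 438 CPM in neurons against 485 and 626 CPM in progenitors of mouse 1 and mouse 2. Its log2 change was 0.44 ± 0.11 in human (edgeR adjusted p = 0.0078) and -0.32 ± 0.11 in mouse (adjusted p = 0.029). UQCR11, a small accessory subunit whose symbol also had a pair of rows in human 1, changed by 0.34 ± 0.09 in human (adjusted p = 0.011) and by -0.33 ± 0.09 in mouse (adjusted p = 0.0099). UQCRC2, a core subunit, changed by 0.35 ± 0.11 in human (adjusted p = 0.029) and by -0.33 ± 0.11 in mouse (adjusted p = 0.026). With library sizes alone the mouse changes of UQCRB, UQCR11 and UQCRC2 were still below 0, at most -0.04, but did not pass. UQCRC1, the other core subunit, and UQCRFS1, the Rieske iron-sulfur protein, had log2 changes of -0.22 ± 0.12 and -0.19 ± 0.10 in human and -0.13 ± 0.11 and 0.15 ± 0.10 in mouse, and none passed.

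In complex IV, 4 of the 16 members that passed the filter rose and none fell in human neurons, while 2 rose and 1 fell in mouse neurons. NDUFA4, a subunit once assigned to complex I, had 1612 and 1139 CPM in human neurons, against 1052 and 788 CPM in human progenitors. Its log2 change was 0.57 ± 0.09 in human (SE; edgeR adjusted p = 0.00067). In mouse the value was -0.01 ± 0.09, which turned to 0.26 with library sizes alone and then passed (adjusted p = 0.046). COX7A2, the widely expressed isoform of subunit VIIa, had 1000.2 and 678 CPM in human neurons against 766 and 427 CPM in progenitors (0.53 ± 0.11, adjusted p = 0.0025). COX7B also rose in human, by 0.36 ± 0.10 on the log2 scale (adjusted p = 0.017).

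NDUFA4L2, a paralogue of NDUFA4 known as a target of hypoxia-inducible factor, was rare in progenitors and rose in mouse neurons. It had 29.4 and 8.88 CPM in neurons of mouse 1 and mouse 2, against 1.98 and 0.979 CPM in progenitors, from 86 and 100 UMIs against 24 and 27 UMIs. NEUROG2+ cells of mouse 1 and mouse 2 had 1.93 and 2.66 CPM, near progenitors. In human it had 6.28 and 4.98 CPM in neurons and 6.84 and 4.14 CPM in progenitors. The log2 change was 3.54 ± 0.43 in mouse (SE; edgeR adjusted p = 8.3e-05) and 0.09 ± 0.43 in human (adjusted p = 0.89). Both mouse libraries were higher in neurons, although their neuron levels differed several-fold.

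Among the other isoforms, COX4I1, the common form of subunit IV, had 1016 and 692 CPM in human neurons against 872 and 572 CPM in progenitors, and rose by 0.25 ± 0.09 on the log2 scale (edgeR adjusted p = 0.041). COX4I2, its lung form, was at or below 4.79 CPM in every class and library. COX6A1 and COX6B1 did not pass in either species, with log2 changes of 0.21 ± 0.12 and 0.28 ± 0.11 in human and 0.08 ± 0.12 and 0.14 ± 0.11 in mouse. COX7A2L, which links complexes into supercomplexes, had 0.27 ± 0.11 in human and 0.02 ± 0.11 in mouse and did not pass. COX8A, the common form of subunit VIII, fell in mouse to 981 and 1198 CPM in neurons, against 1309 and 1445 CPM in progenitors (-0.34 ± 0.09, adjusted p = 0.0087), and had -0.23 ± 0.09 in human (adjusted p = 0.065). COX5A rose in mouse by 0.28 ± 0.10 (adjusted p = 0.038). The muscle form COX6A2 and the testis form COX8C were at or below 0.868 CPM everywhere.

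**Figure D3:**
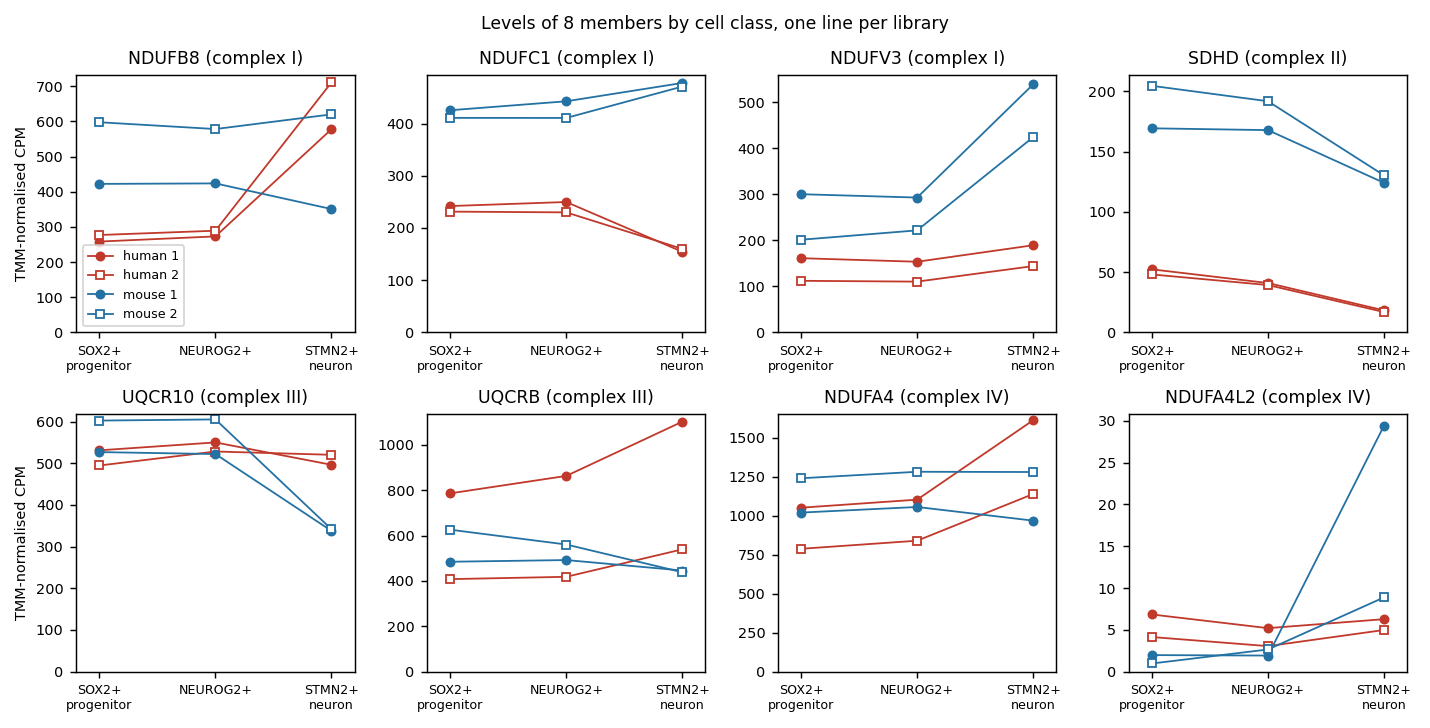
TMM-normalised CPM (y axis, from 0) of 8 members in progenitors, NEUROG2+ cells and neurons (x axis), with 1 line per library (red human, blue mouse; filled circles library 1, open squares library 2). For NDUFB8, NDUFC1, NDUFV3 and UQCR10 the NEUROG2+ cells lie near progenitors, and for SDHD in human they lie between progenitors and neurons.

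Of the 13 mitochondrially encoded genes, none rose and 5 fell in human neurons, and none rose and 2 fell in mouse neurons, by the same test. Of all genes tested, 21.3% rose and 26.6% fell in human, and 28.5% rose and 30.6% fell in mouse. MT-CO3 had 3773 and 2055 CPM in neurons of human 1 and human 2, against 5595 and 2557 CPM in progenitors (log2 change -0.44 ± 0.11, SE; edgeR adjusted p = 0.0069). MT-ATP6, MT-ND1, MT-CYB and MT-CO2 fell in human by 0.42, 0.40, 0.37 and 0.33 on the log2 scale (adjusted p = 0.014, 0.025, 0.023 and 0.045). In mouse MT-ND1, a core subunit of complex I, had 2556 and 1069 CPM in neurons against 3670 and 1428 CPM in progenitors (-0.47 ± 0.13, adjusted p = 0.0093), and MT-ND3 changed by -0.34 ± 0.12 (adjusted p = 0.039). The other human values ran from -0.31 for MT-ND6 to -0.02 for MT-ND5, and MT-CO1, MT-ND2, MT-ND3, MT-ND4, MT-ND4L and MT-ATP8 lay between them. The median of the 13 was -0.29 in human and -0.23 in mouse, where 6 of the 13 lay far below their mouse 1 level in mouse 2, as described below. With library sizes alone the mouse median was 0.05 and the human one -0.18, so the mouse direction depended on the scaling; 2 of the 13 then fell in human, and in mouse 1 rose and none fell. None of the 13 was called in either species without cells that held a UMI of MKI67 or TOP2A, where 42.9% of all genes were called in human and 55.0% in mouse. Without human 1 or without human 2 the human median of the 13 was -0.11 or -0.38. In mouse their median was 0.01 without mouse 1 and -0.36 without mouse 2. How many of the 13 were called also changed with the part left out.

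NEUROG2+ cells, which hold a proneural factor, were compared with progenitors in the same fit. Their neuron markers summed to 207 to 730 CPM, and cycling markers to 831 to 1872 CPM, against 898 to 1510 CPM in progenitors. Progenitor markers summed to 2348 to 9413 CPM, higher than in progenitors in each library (2082 to 8747 CPM). Neurogenic markers, NEUROG2 among them, were at 1727 to 3020 CPM, against 320 to 784 CPM in progenitors. The test by edgeR called none of the 64 members, in human or in mouse, and DESeq2 called none either. Of all genes, 0.723% rose and 0.261% fell in human, and 1.35% rose and 0.252% fell in mouse, so few calls were available to any list. At an unadjusted p under 0.05 there were 3 of 64 members in human and 2 in mouse, no more than that threshold alone would give. They included SDHD (log2 change -0.32 ± 0.11) and NDUFB4 (0.23 ± 0.10) in human, and UQCRFS1 (0.24 ± 0.09) and COX4I2 (-2.04 ± 0.69, on few UMIs) in mouse. The members' median was 0.06 in human and 0.02 in mouse, and the mitochondrially encoded genes had medians of 0.07 and 0.00 with no call.

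Within neurons, cells were further split by their STMN2 UMIs after thinning, as a description with no test. In human 1 the log2 ratio of SDHD to progenitors was -1.02, -1.49 and -2.05 in the bins with under 10, under 30, and 30 or more STMN2 UMIs. In human 2 it was -1.03, -1.53 and -1.73, so that SDHD was lowest in both libraries where STMN2 was highest. NDUFB8 was above progenitors in all bins, at 0.98, 1.32 and 0.87 in human 1 and 1.05, 1.52 and 1.07 in human 2. In mouse 2, NDUFV3 stood at 0.53, 1.20 and 1.20 and UQCR10 at -0.40, -0.87 and -0.89, while mouse 1 had 0.61 and 1.02 for NDUFV3 and -0.59 and -0.69 for UQCR10 in its lower bins and only 2 cells in the highest.

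The difference between the human and the mouse change was tested as a contrast of its own. Of 64 members, 11 changed more upwards in human and 6 more upwards in mouse, where 9.54% of all genes were called higher and 11.5% lower. By complex these were 4 and 4 of complex I, none and 1 of complex II, 4 and none of complex III, and 3 and 1 of complex IV. NDUFB8 had the largest positive difference among the called members, 1.36 ± 0.16 (log2, human minus mouse, SE; edgeR adjusted p = 0.00094), followed in complex I by NDUFS7 with 0.85 ± 0.15. In complex III UQCRB, UQCR10, UQCRC2 and UQCR11 had 0.76 ± 0.15, 0.72 ± 0.14, 0.68 ± 0.16 and 0.67 ± 0.13. NDUFA4L2 had the most negative one, -3.46 ± 0.60 (adjusted p = 0.0044), followed by SDHD with -0.96 ± 0.16 (adjusted p = 0.0040) and NDUFC1 with -0.77 ± 0.14. No mitochondrially encoded gene was called by edgeR or DESeq2, and 1 of 13 had an unadjusted p under 0.05. With library sizes alone the split of members was 7 and 8, where 802 of all genes were called higher and 1758 lower. Without human 1 or without human 2 the members' median difference was 0.17 or 0.29. Fewer members, and fewer of all genes, were then called.

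The levels themselves were compared between human and mouse within a class, over 2 against 2 library parts. In progenitors 1 of 64 members was higher in human and 10 were lower, where 16.9% of all genes were higher and 12.9% lower. In neurons none of 63 was higher and 7 were lower, where 10.7% of all genes were higher and 7.31% lower. Both lower counts include COX7A1 and COX6B2, which had at most 11 UMIs in a human class and passed the filter through the mouse sums. For COX7A1 and COX6B2 only a lower human level could be called. The median log2 difference (human over mouse) was -0.60 for members and -0.02 for all genes in progenitors, and -0.26 and 0.01 in neurons. In both the mixed library and the second libraries, 43 members were lower and 9 higher in human progenitors, and 38 were lower and 9 higher in human neurons. Leaving out 1 library part at a time, the members' median ran from -0.82 to -0.35 in progenitors and from -0.48 to -0.12 in neurons. Without human 2, mouse 1 or mouse 2 fewer members, and fewer of all genes, were called in progenitors. The same held in neurons without human 1, human 2 or mouse 2. At an unadjusted p under 0.05 the neuron comparison held 16 members, a count not set against all genes here. DESeq2 called 1 higher and 9 lower in neurons, where it called 23.1% of all genes. Differences in how a symbol was annotated and captured in each species cannot be told apart from differences in level here.

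SDHB and SDHD of complex II were lower in human in both classes. SDHD had 18.3 and 16.9 CPM in human neurons, against 124 and 130 CPM in mouse neurons (log2 difference -2.69 ± 0.37, SE; edgeR adjusted p = 0.0096). In progenitors its difference was -1.87 ± 0.33 (adjusted p = 0.0075). The pair of rows of SDHD in human 1, described above, limits this comparison too. SDHB had 75.9 and 30.2 CPM in human neurons, against 240 and 327 CPM in mouse neurons (-2.25 ± 0.52, adjusted p = 0.030), and 56.6 and 28.9 CPM in human progenitors, against 244 and 296 CPM in mouse progenitors (-2.64 ± 0.43, adjusted p = 0.0056). SDHA and SDHC did not pass in either class. In the mixed library alone the log2 difference of SDHB was -2.09 in progenitors, and in the second libraries it was -3.31.

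In complex I, NDUFA7 had 54.5 and 80.1 CPM in human neurons, against 517 and 473 CPM in mouse neurons (-2.71 ± 0.38, edgeR adjusted p = 0.0098), and its difference in progenitors was -3.31 ± 0.36 (adjusted p = 0.0019). NDUFA7 was also listed in a pair of rows in human 1, with all but 1 of its UMIs in the second row, so its human level carries the same uncertainty as that of NDUFB8. NDUFC1 and NDUFV3 were lower in human neurons by the test (-1.43 ± 0.34 and -1.36 ± 0.38, adjusted p = 0.032 and 0.049). NDUFB5, NDUFA2, NDUFA10 and NDUFA5 were lower in human progenitors, with log2 differences between -1.40 and -1.37 (edgeR adjusted p = 0.016 to 0.035). NDUFS5 was the 1 member higher in human, with 852 and 612 CPM in human progenitors against 328 and 320 CPM in mouse progenitors (1.20 ± 0.37, adjusted p = 0.045). NDUFS1, NDUFS3, NDUFS7, NDUFS8, NDUFV1 and NDUFV2 of complex I and UQCRC1, UQCRC2 and UQCRFS1 of complex III did not pass in either class.

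In complex IV the largest called differences were in isoforms with few or no UMIs in human cells, which entered the test through their mouse counts. COX7A1, the heart and muscle form of subunit VIIa (human chromosome 19, 36150922 to 36152447, GRCh38.p14; mouse chromosome 7, 30184144 to 30186078, GRCm38), had no UMI in human progenitors and 206 UMIs in mouse progenitors. It was at least 30.9-fold higher in mouse progenitors, taking a count of 3 UMIs over both human libraries as the floor. In neurons it had 2 UMIs in human and 81 in mouse, a ratio of mouse over human of 29.4 with a 95% counting interval of 7.89 to 247. COX6B2, known as the testis form of subunit VIb, had 1.14 and 0.969 CPM in human neurons, against 38.0 and 16.1 CPM in mouse neurons. With 11 UMIs in human and 292 in mouse, the ratio of mouse over human was 19.3, with a 95% counting interval of 10.6 to 39.1. In progenitors COX6B2 had 0.480 and 0.487 CPM in human, against 37.8 and 22.8 CPM in mouse. The ratio there, from 10 and 1087 UMIs, was 49.0 with a 95% counting interval of 26.5 to 102. COX8A was also lower in human progenitors (log2 difference -1.51 ± 0.40 SE, edgeR adjusted p = 0.027), while COX4I1, COX6A1, COX6B1, COX7A2, COX7A2L and NDUFA4 did not pass in either class. NDUFA4L2 did not pass either, at 1.93 ± 0.67 in progenitors (adjusted p = 0.064) and -1.59 ± 0.71 in neurons (adjusted p = 0.17).

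**Figure D4:**
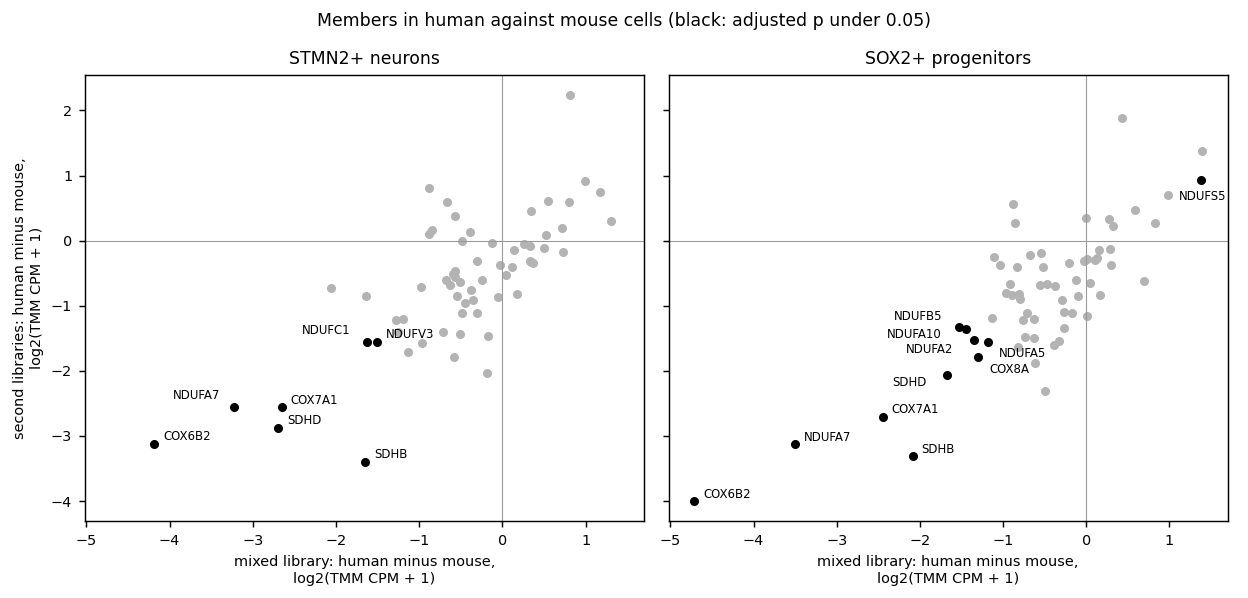
Human minus mouse difference on the log2(TMM CPM + 1) scale within the mixed library (x axis) and between the second libraries (y axis) for the 64 members, left neurons and right progenitors; black points passed an adjusted p of 0.05. COX6B2, NDUFA7, SDHB, SDHD and COX7A1 lie below 0 on both axes in both classes. COX6B2 and COX7A1 passed the filter through the mouse sums, so only a lower human level could be called for them.

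The mitochondrially encoded genes could not be set between species in the same way, because the mouse libraries stood far apart. MT-CO2 had 29.6 CPM in progenitors of mouse 2 and 3325 CPM in those of mouse 1, and MT-CO3 had 21.4 CPM in mouse 2 and 4233 CPM in mouse 1. MT-CYB, in contrast, had 4705 CPM in progenitors of mouse 2 and 3089 CPM in those of mouse 1. The mouse transcripts of GENCODE M21 (GRCm38) were searched for copies of the last 300 bases of each gene, in words of 60 bases. For MT-CO1, MT-CO2, MT-CO3, MT-ATP6, MT-ND3 and MT-ND4L, 98.7% to 100% of these words lay in transcripts of other genes, annotated as unprocessed pseudogenes. The level of these 6 genes in mouse 2 was 0.00505 to 0.120 times that in mouse 1. For MT-CYB, MT-ND1, MT-ND4, MT-ND5, MT-ND6 and MT-ATP8 none of the words did, and the level in mouse 2 was 0.389 to 4.62 times that in mouse 1. MT-ND2 lay between, with 29.0% of words and a ratio of 0.520. The sequences below show the case of mt-Co2, whose 60 bases near the end (chromosome MT:7634-7693, plus strand) are found unchanged in Gm28661 on chromosome 1 (chr1:24614885-24614944, minus strand), beside the last bases of mt-Cytb (chromosome MT:15229-15288, plus strand, lower case), which no other transcript holds.
mt-Co2: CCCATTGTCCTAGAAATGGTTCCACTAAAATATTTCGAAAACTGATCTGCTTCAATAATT
Gm28661: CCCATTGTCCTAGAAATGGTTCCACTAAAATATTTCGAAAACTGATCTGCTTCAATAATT
mt-Cytb: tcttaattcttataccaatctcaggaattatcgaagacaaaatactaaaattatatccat
Capitals mark the 60 bases held by both transcripts. For each of the 6 genes at 98.7% or more, the other gene that held the most words was listed in neither mouse 1 nor mouse 2. No UMIs of these other genes could thus be set beside the low counts. The part of such copies in the low counts of mouse 2 was not tested, since no reads were used here, and no human transcripts were searched. Of the members, 15 with a partial match had 0.829 to 1.42 times the mouse 1 level in mouse 2, and 46 with none had 0.285 to 1.39 times, leaving out genes under 5 CPM in mouse 1.

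**Figure D5:**
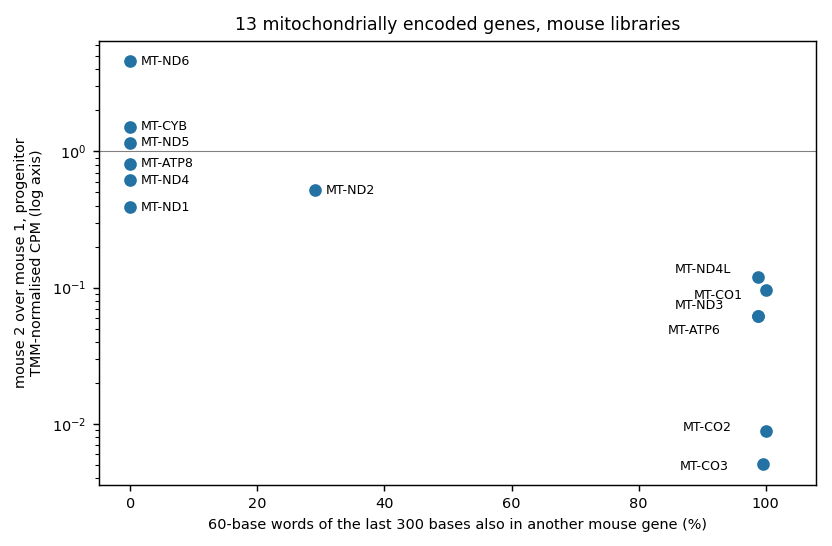
For each of the 13 mitochondrially encoded genes, the percent of 60-base words in its last 300 bases that other mouse transcripts hold (x axis) and the level in mouse 2 over that in mouse 1 in progenitors (y axis, log scale). The 6 genes at 98.7% or more lie at or below a ratio of 0.120, and the other 7 at 0.389 or above.

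In the species test MT-ND6, a core subunit on the other strand of the mitochondrial genome, was the 1 mitochondrially encoded gene called, with 131 and 91.8 CPM in human progenitors against 8.18 and 37.8 CPM in mouse progenitors (log2 difference 2.30 ± 0.67, SE; edgeR adjusted p = 0.038). Among the genes without copies, MT-ND5 had 783 and 370 CPM in human progenitors against 220 and 255 CPM in mouse progenitors (1.30 ± 0.44, adjusted p = 0.060). MT-CYB had 2469 and 1072 CPM in human progenitors against 3089 and 4705 CPM in mouse progenitors (-1.12 ± 0.57, adjusted p = 0.18). MT-ATP8 had 48.5 and 154 CPM in human progenitors against 359 and 292 CPM in mouse progenitors (-1.66 ± 0.54, adjusted p = 0.054). MT-ND1 and MT-ND4 had differences of -0.23 ± 0.75 and 1.22 ± 0.61 and did not pass. The count in progenitors depended on the libraries and settings: 5 of the 13 were higher in human without mouse 1, and 3 were higher and 1 lower without human 2. In progenitors DESeq2 called 3 higher and 1 lower, the test without a filter on low counts called 4 higher and 1 lower, and so did a replicate block. With library sizes alone, or without cells that held a UMI of MKI67 or TOP2A, 4 were higher. Of all genes, 24.0% to 35.0% were called in progenitors under these settings that kept all libraries. In neurons edgeR called none of the 13, with 5 of 13 under an unadjusted p of 0.05, while DESeq2 called 4 as higher in human, as did edgeR without the filter. Of all genes, DESeq2 called 23.1% there and edgeR without the filter 16.8%. Without mouse 1, 6 were higher in human neurons, and without human 2, 1 was higher and 1 lower.

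Other genes of the pathway are given as whole lists, to be read against the background percents given above for the members. Of 40 assembly factors, 3 rose and 11 fell in human neurons, and 7 rose and 16 fell in mouse neurons. NDUFAF2 and NDUFAF6, which help to build complex I, fell in both (-0.71 and -0.84 in human, -1.29 and -1.16 in mouse), while NDUFAF5 rose in human by 1.13. Of 12 electron carriers and their enzymes, 2 rose and 2 fell in human and none rose and 7 fell in mouse. COQ2, which commits precursors to ubiquinone, fell by 1.90 in human and by 0.69 in mouse on the log2 scale. ETFB, an electron transfer flavoprotein subunit, went in opposite directions, at 1.01 in human and -0.85 in mouse.

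Of 17 regulators of mitochondrial gene expression, 1 rose and 6 fell in human and 1 rose and 10 fell in mouse. PPRC1, a coactivator of the PGC-1 family, changed by -1.59 in human and -2.34 in mouse, and TFAM, which packages and transcribes mitochondrial DNA, by -1.60 in mouse. Of 19 genes of the outer membrane and import, 1 rose and 9 fell in human and none rose and 14 fell in mouse. HSPD1, the matrix chaperonin, changed by -1.31 in human and -2.09 in mouse, and TOMM5 by -1.10 and -1.70. Of 14 genes of the citric acid cycle, 3 rose and 2 fell in human and 2 rose and 5 fell in mouse, with SUCLG2, a subunit of the GTP-forming succinyl-CoA ligase, at -2.70 and -3.87. Of 16 genes of the ATP synthase, 4 rose and 3 fell in human and 2 rose and 3 fell in mouse, with medians of 0.17 and -0.02.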

How the data were processed

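Single cells of 4 library parts were measured by 3′ RNA sequencing. The deposited tables hold raw UMI counts per gene and cell, made by the authors with Cell Ranger 3.1.0 and the builds mm10 and hg38, per the submitters' processing notes; the annotation and the calling of cells are not given in the sources used here. Symbols were upper-cased, second rows of a symbol were added to it, and 15473 symbols common to all files were used. Human 1, human 2, mouse 1 and mouse 2 listed 32739, 56832, 27999 and 54087 gene entries. Cells with under 1000 UMIs, under 500 genes or over 10% mitochondrial UMIs were dropped. The mitochondrial UMIs of this limit included MT-RNR1 and MT-RNR2, which only human 2 and mouse 2 listed, so the limit was not the same measure in all libraries. It alone removed 12, 141, 5 and 39 cells, in the same order. Scrublet (scanpy 1.11.5) removed 11, 24, 5 and 32 doublets from human 1, human 2, mouse 1 and mouse 2, which left 2323, 1805, 1811 and 2674 cells.

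Counts were summed per library part and class (12 sums) and tested with edgeR 4.0.16 (filterByExpr, TMM, quasi-likelihood test, Benjamini-Hochberg over all genes tested, called at an adjusted p under 0.05). Class comparisons used all sums with the library part as a block, and species comparisons the 4 sums of a class. The procedure was tested on simulated data. DESeq2 1.42.0 and other settings were alternatives; library sizes alone, other thinning draws, rows as deposited and a mitochondrial filter on 13 genes were chosen after seeing the data. Intervals cover counting error only. Named with values were core subunits of complex I, all of complex II, UQCRC1, UQCRC2, UQCRFS1, the isoform sets, up to 3 called members per complex and comparison by size of change, and the mitochondrially encoded genes; UQCR11, NDUFA10, NDUFA5 and NDUFS5 between species, NDUFB1, and the further members among the differences of the changes were named after their values were seen. Members and lists were chosen with earlier results of these data known. The values of 1 member are not reported here.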

Additional observations from a re-analysis of the deposited data

Results flagged for a closer look

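For 17 members the change from progenitors to neurons differed between human and mouse by the edgeR contrast of the changes. The human change was the more negative one for NDUFA4L2 (-3.46, human minus mouse on the log2 scale), SDHD (-0.96), NDUFC1 (-0.77), NDUFA6 (-0.69), NDUFV3 (-0.66) and NDUFA11 (-0.48). It was the more positive one for NDUFB8 (1.36), NDUFS7 (0.85), UQCRB (0.76), NDUFA5 (0.74), UQCR10 (0.72), COX7A2 (0.69), UQCRC2 (0.68), UQCR11 (0.67), NDUFA4 (0.59), COX7B (0.54) and NDUFA12 (0.53). NDUFA12 was called in mouse only, and its difference had an adjusted p of 0.047 by edgeR. With 2 library parts per species, a single part that stood apart from the others could not be detected from its spread.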

How the results depend on the processing

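No called direction of a member reversed under the 19 alternatives. Of values that did not pass, NDUFA4 in mouse neurons became 0.26 (log2) with library sizes alone and then passed (edgeR adjusted p = 0.046), and MT-ATP6 in human against mouse neurons ran from -1.39 without mouse 2 to 2.27 without mouse 1, where it passed (adjusted p = 0.042); the cause was not tested. The human neuron calls of SDHD and NDUFB8 and the mouse calls of NDUFA4L2 and UQCR10 held under all 19, and the mouse call of UQCRB under 10. Counts of called members ran, leaving out 1 library part at a time, from 3 to 32 for human neurons, 9 to 17 for mouse neurons, 1 to 17 for the difference of the changes, 4 to 12 for human against mouse progenitors and 3 to 5 for neurons. Fitted with no replicate block, human neurons had 2 called members, mouse neurons 2, and the difference of the changes 0. Of all genes, 14.6%, 23.6% and 0.412% were then called, in the same order. The cause was not tested. With a replicate block, 11 members differed between species in neurons, where 24.0% of all genes did. Only the parts numbered 1 share a library, so the numbers do not pair the samples. With library sizes alone, 34 members were called in mouse neurons, where 59.6% of all genes were. Size factors of DESeq2, other neuron gates, other thinnings and mitochondrial filters kept every count within 1.5 times. Depth limits COX7A1, COX6B2, COX4I2 and NDUFA4L2, which rest on few UMIs.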
